A study of Mus musculus with 12 samples.

Results

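Regions of open chromatin shared by every sorted population were taken from 6 peak lists of mouse embryo cells. Peaks on chromosomes 1 to 19 that overlapped by at least 1 bp were merged into 93083 union regions. The members were chosen by the presence of peaks: they are the 12799 regions (13.8%) that held a peak in all 6 lists and were under 3000 bp wide. That count and the peak scores are therefore a description. The assay was ATAC-seq, which reads accessible DNA through the insertions of a transposase, in embryos at embryonic day 7.5. All embryos were homozygous for a knock-in FoxA2 allele fused to tagRFP, a red fluorescent protein, on a mixed C57Bl6/J and CD-1 background. In WT embryos the FoxA2 part was intact, and in dHx embryos it lacked 10 amino acids of an alpha helix. Cells of each genotype were sorted into RFP High (brighter than heterozygous cells), Middle (up to the brightest heterozygous cells) and Negative. Each of the 6 groups had 2 samples, made from 2000 to 5000 cells of pooled embryos of both sexes, without the extraembryonic portion. No group lacked the tag. Each group was deposited as 1 peak list read here as pooled over its 2 samples, so no value had replicates and no difference was tested.

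Most genes that every cell needs are read from promoters rich in CpG dinucleotides, which are usually unmethylated and kept open by broadly present transcription factors. Among these factors are the Sp and KLF proteins, which bind GC boxes, NF-Y, which binds the CCAAT box, ETS proteins such as GABPA, and YY1. Genes of single organs more often use promoters poor in CpG, some with a TATA box, the site of the TATA-binding protein. tRNA genes are read by RNA polymerase III from promoters inside the gene. FoxA2 is a forkhead factor of endoderm, node and notochord that can bind its site in closed chromatin.

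The first 6 promoters, each with a member, show the words that such factors bind, and the last 2, without a peak in any list, show the contrast. Each line gives the 200 bases before the start of transcription from the RefSeq promoter table of GRCm38.p6 (mm10), 5′ to 3′ on the strand of the gene, with every match of 1 word, on either strand, in capitals.
Sp1, GC box GGGCGG, chr15:102406116-102406315, plus strand: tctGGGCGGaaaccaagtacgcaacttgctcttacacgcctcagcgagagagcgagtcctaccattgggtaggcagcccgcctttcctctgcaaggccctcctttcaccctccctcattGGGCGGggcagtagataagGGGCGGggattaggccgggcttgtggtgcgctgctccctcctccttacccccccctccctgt
Rpl37, ETS word CCGGAAG, chr15:5116413-5116612, plus strand: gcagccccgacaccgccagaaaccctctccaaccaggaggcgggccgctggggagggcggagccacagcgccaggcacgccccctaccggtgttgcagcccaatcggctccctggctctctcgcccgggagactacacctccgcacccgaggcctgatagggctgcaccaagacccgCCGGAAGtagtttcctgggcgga
Zfp143, CCAAT box, chr7:110061502-110061701, plus strand: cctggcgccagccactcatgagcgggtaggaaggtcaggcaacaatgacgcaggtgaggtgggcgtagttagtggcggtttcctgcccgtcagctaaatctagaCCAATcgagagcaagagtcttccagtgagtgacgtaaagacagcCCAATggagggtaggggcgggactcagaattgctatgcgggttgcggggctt
Gabpa, YY1 word AAGATGGCG, here as its reverse complement, chr16:84834924-84835123, plus strand: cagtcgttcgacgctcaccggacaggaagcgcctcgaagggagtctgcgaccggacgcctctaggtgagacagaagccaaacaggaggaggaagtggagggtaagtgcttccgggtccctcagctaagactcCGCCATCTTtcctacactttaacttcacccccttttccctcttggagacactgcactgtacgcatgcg
Gtf2f1, CRE word TGACGTCA, chr17:57011289-57011488, minus strand: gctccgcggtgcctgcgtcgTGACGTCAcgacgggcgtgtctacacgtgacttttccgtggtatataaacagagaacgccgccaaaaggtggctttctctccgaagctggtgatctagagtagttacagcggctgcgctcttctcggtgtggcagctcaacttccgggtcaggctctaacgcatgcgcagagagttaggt
Elf1, TATA word TATAAA, chr14:79480994-79481193, plus strand: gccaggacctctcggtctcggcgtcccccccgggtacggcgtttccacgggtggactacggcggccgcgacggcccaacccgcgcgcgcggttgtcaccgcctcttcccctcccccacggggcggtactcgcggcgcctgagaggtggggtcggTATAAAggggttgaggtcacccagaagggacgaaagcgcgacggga
Amy2b, no peak, TATA word TATAAA, chr3:113156728-113156927, minus strand: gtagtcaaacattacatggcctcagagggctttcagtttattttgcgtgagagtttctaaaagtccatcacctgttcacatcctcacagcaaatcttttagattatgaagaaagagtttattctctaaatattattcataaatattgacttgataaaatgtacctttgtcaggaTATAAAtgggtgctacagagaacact
Cela1, no peak, TATA word TATAAA, chr15:100687921-100688120, minus strand: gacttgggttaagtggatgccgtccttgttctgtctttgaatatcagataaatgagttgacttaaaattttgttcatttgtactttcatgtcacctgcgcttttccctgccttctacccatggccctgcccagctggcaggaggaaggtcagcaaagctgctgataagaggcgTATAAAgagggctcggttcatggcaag
The Sp1 promoter held 3 GC boxes in these bases and the Zfp143 promoter 2 CCAAT boxes. The printed bases held 10 CpG in Sp1, 16 in Rpl37, 11 in Zfp143, 13 in Gabpa, 19 in Gtf2f1 and 28 in Elf1. Those of Amy2b, a pancreatic amylase gene, held 1 CpG, and those of Cela1, a pancreatic elastase gene, held 4.

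Gene starts were the main place of the shared regions. Of the 12799 members, 6472 (50.6%, 95% Clopper-Pearson interval 49.7 to 51.4) lay within 1 kb of the start of a protein-coding gene. That share was 22.5% (21.4 to 23.6) of the 5815 regions with a peak in 5 lists and 5.02% (4.81 to 5.24) of the 41073 regions with a peak in 1 list. It was 28.4% (23.6 to 33.5) of the 335 regions in all 6 lists that were 3000 bp or wider. The share therefore rose with each further list, and it was lower again in the broad regions. All intervals here cover counting error only, and regions are not replicates.

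**Figure D1:**
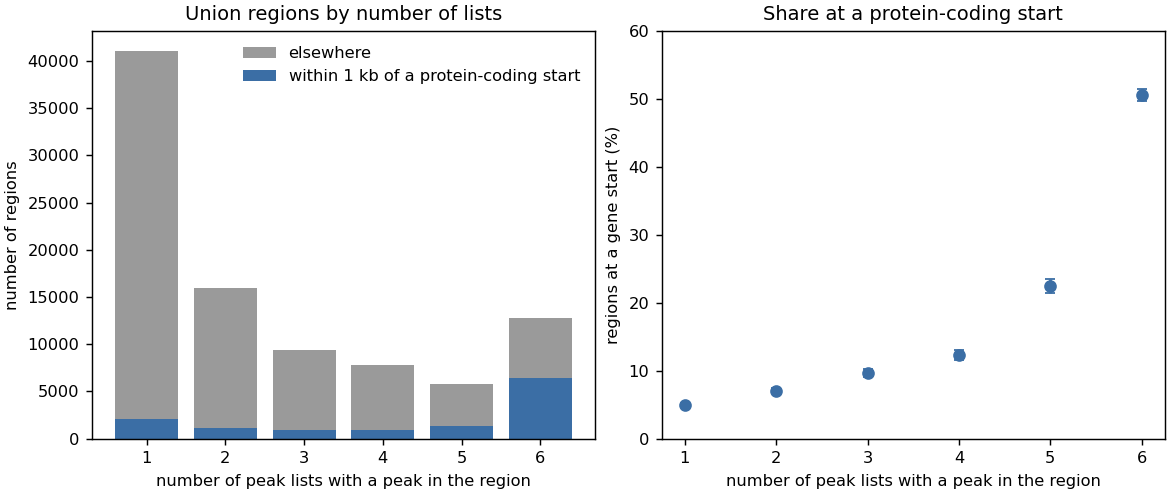
Union regions by the number of peak lists with a peak in them, as counts split by place (left) and as the percentage within 1 kb of a protein-coding start with 95% Clopper-Pearson intervals (right). The 335 regions of 3000 bp or more are left out. The share at a start is 5.02% for 1 list, 22.5% for 5 lists and 50.6% for 6 lists.

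The remaining members fell into several classes. At an end of a gene for which the promoter table gives no start lay 1235 members (9.65%), so some of these may also be starts. The start of a long noncoding RNA was within 1 kb of 350 members (2.73%). A tRNA gene was near 86 members (0.672%) that were at none of these places, against 0.0511% of the regions in 1 list. Inside a gene lay 2173 members (17.0%) and outside genes 2483 (19.4%), while 41.6% and 49.5% of the regions in 1 list did. The members outside genes were a median of 23.7 kb from the nearest protein-coding gene, and 522 of them were over 100 kb away.

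Some members lay near the starts of more than 1 gene. For this count each start was given to its nearest member only, which left 6404 members with a start. Starts of 2 or more genes, with both strands present, were near 668 of these 6404 members (10.4%, 9.69 to 11.2). The same held for 6.05% (4.82 to 7.49) of the regions with a start in 5 lists and 2.40% (1.77 to 3.19) of those in 1 list. The median width was 1030 bp for all members and 286 bp for all regions in 1 list. The part of width in these shares was not tested.

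The members covered 14.5 Mb and had a median width of 1030 bp, from 237 to 2999 bp. The stretch covered by a peak of every list had a median of 352 bp, 37.0% of the width over all members. In 355 members no base was shared by all 6 lists, because overlapping peaks were chained, so these regions met the rule without a common open base. Members at a start were wider (median 1103 bp) than the others (952 bp). Just inside the width limit were the regions at Etv1 (2999 bp), an ETS factor gene, and Epha3 and Alkbh5 (2995 bp each). Just outside were those at Ifna13 (3004 bp), Kmt2a (3005 bp), which encodes a histone methyltransferase, and Pisd (3006 bp).

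Near the other threshold of the rule, 5815 regions lacked a peak in 1 list. The missing list was dHx High for 1413 of them, WT Negative for 1319, dHx Middle for 1127, WT Middle for 847, WT High for 616 and dHx Negative for 493. The dHx High list was the shortest, with 36070 peaks, and the dHx Negative list the longest, with 48244. List length and depth were not matched, and their part in which list was missing was not tested.

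Of the 16457 protein-coding genes with a start in the table, 6962 (42.3%, 41.5 to 43.1) had a member within 1 kb of a start. With either end of the gene counted, it was 8278 of all 20665 autosomal genes (40.1%). Of the 16457 genes, 5013 (30.5%) had no peak of any list there, and 4482 (27.2%) had peaks without a member. In the lists of genes given below, counts are of genes with a start in the table and are read against 42.3%. The lists are short, and their intervals are wide.

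Genes of protein folding and cell division were the most often open in all populations among the 15 lists. A member lay at the start of 11 of 12 heat shock and cochaperone genes (91.7%, 61.5 to 99.8). Dnajb1, a cochaperone of Hsp70, had authors' scores of 55.1, 55.7, 41.7, 49.5, 45.2 and 57.7 in WT High, Middle and Negative and then dHx High, Middle and Negative. The score is on a −log10 scale, of either the p-value or the q-value of a peak. The scores of a list depend on its depth, so they are compared only through ranks within a list. On a scale from 0 to 100 over all members, the lowest of the 6 ranks of Dnajb1 was 89.8. Scores were often tied, with 125 (dHx High) to 191 (dHx Negative) distinct values over all members, and tied members share 1 rank. Tcp1, a subunit of the chaperonin that folds actin and tubulin, had a lowest rank of 88.4, and Hspa5, the Hsp70 of the endoplasmic reticulum, 85.9. Cct5, another chaperonin subunit, was without a member, with peaks in 4 lists.

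Of the cell cycle and replication genes, 18 of 20 (90%, 68.3 to 98.8) had a member. Mcm7, a subunit of the replicative helicase, had scores of 41.9, 57.2, 35.7, 64.7, 33.9 and 50.2 in the same order of lists, and a lowest rank of 85.3. Pcna, the sliding clamp, and E2f1, a regulator of S phase genes, each had a lowest rank of 68.6. Bub1, a kinase of the spindle checkpoint, had peaks in WT High and WT Middle alone, and Ccnb2, a mitotic cyclin, in 5 lists.

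The genes of the promoter-binding factors included some of the stronger members. In that list 14 of 17 (82.4%, 56.6 to 96.2) had a member. Sp1 (chr15:102405234-102407120) had scores of 191, 161, 127, 233, 183 and 170, and every rank was 99.0 or higher. Zfp143 (chr7:110060471-110062385), a zinc finger factor of promoters, had scores of 68.9, 110, 81.5, 84.7, 80.6 and 91.4 and a lowest rank of 95.7. Max, the partner of Myc, had a lowest rank of 86.2. Nfya, the NF-Y subunit, had 82.8 and Gabpa 65.3. Atf1, a CRE-binding factor, had peaks in 5 lists. Mycn, a Myc factor, had peaks of all 6 lists within 1 kb that did not form 1 member.

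Transcription, splicing and chromatin genes had intermediate shares, all above 42.3%. RNA polymerase II and general factor genes had a member in 14 of 20 cases (70.0%, 45.7 to 88.1), led by Taf10, a TFIID subunit with scores of 45.1, 57.2, 54.4, 60.8, 37.0 and 79.8. Tbp, the gene of the TATA-binding protein, was in 4 lists and so without a member. Spliceosome genes had one in 17 of 25 cases (68.0%, 46.5 to 85.1), led by Snrpd2 and Snrpa, both snRNP protein genes, with lowest ranks of 78.9 and 75.5. Genome folding and chromatin genes had one in 14 of 19 (73.7%, 48.8 to 90.9), led by Stag1, a cohesin subunit (64.1), and Suz12 of Polycomb complex PRC2 (55.3). Chd4, a remodelling ATPase, had peaks in dHx High and dHx Middle alone at its start in the table. A member did lie within 1 kb of an end of the Chd4 gene. Dnmt3b, a DNA methyltransferase, had peaks of all 6 lists near its start that did not form 1 member, and Kmt2a lay in the region just above the width limit.

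In protein synthesis and energy supply the share was 10 of 13 tRNA synthetase genes (76.9%, 46.2 to 94.96), 16 of 25 proteasome genes (64.0%, 42.5 to 82.0) and 11 of 18 respiratory chain genes (61.1%, 35.7 to 82.7). With either gene end counted, these were 16 of 20 (80%), 18 of 31 (58.1%) and 13 of 27 (48.1%), against 40.1% of all genes. Aars, the alanine tRNA synthetase, had a lowest rank of 70.2. Psmd8 of the proteasome cap had 82.8, and Atp5b of the ATP synthase 86.4. Ribosomal protein genes had a member in 16 of 33 cases (48.5%, 30.8 to 66.5), near the share of all genes. With a member at either gene end counted, it was 29 of all 43 (67.4%, against 40.1% of all genes), so this reading depends on which genes have a start in the table. All of the other 17 had a peak in at least 1 list, and 8 of them were in 5 lists. Rpl37 was highest, with scores of 40.3, 72.9, 41.7, 62.8, 55.4 and 53.2 and a lowest rank of 87.2. Rpl10a was lowest among those with a member, at 3.46. Ribosomal protein genes have many processed copies, so reads may be lost or split at some of them.

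**Figure D2:**
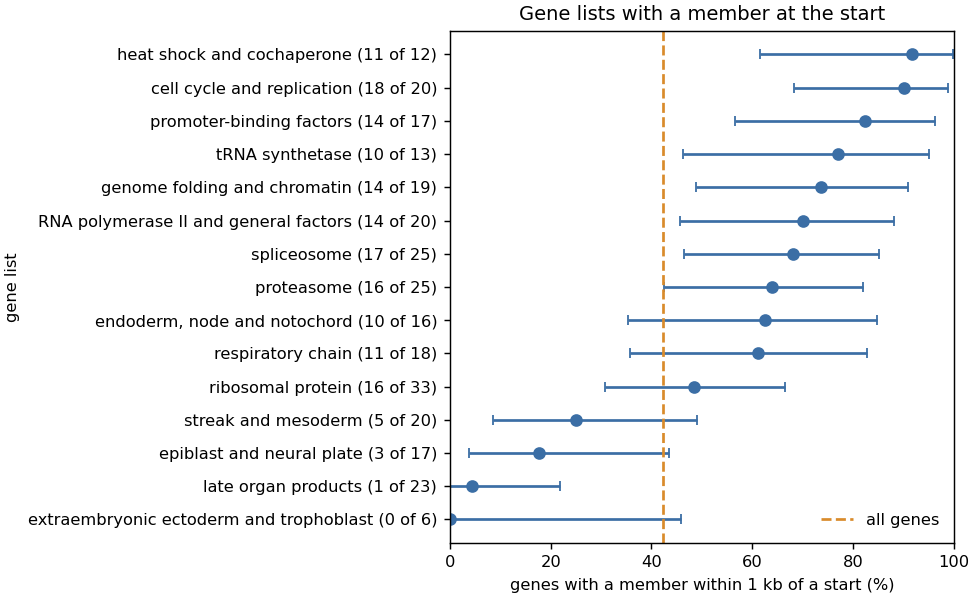
Percentage of the genes of each list with a member within 1 kb of a start, with 95% Clopper-Pearson intervals and counts beside the names. The dashed line is the 42.3% of all protein-coding genes. Heat shock and cell cycle genes are at the top, with 11 of 12 and 18 of 20, and late organ and trophoblast genes at the bottom, with 1 of 23 and 0 of 6.

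Developmental genes differed by list. Of the endoderm, node and notochord genes 10 of 16 (62.5%, 35.4 to 84.8) had a member, and Foxa2 was one. With either gene end counted, it was 11 of 24 (45.8%), close to the 40.1% of all genes. Its region (chr2:148045181-148047200) had scores of 23.6, 24.6 and 13.8 in the WT High, Middle and Negative lists and of 42.2, 27.7 and 14.5 in those of dHx. Its ranks were 70.5, 68.3, 55.0, 87.5, 79.6 and 40.7 in that order. The 4 RFP-positive lists ranked it above both Negative lists, and it was a peak in cells sorted as negative for the tag in both genotypes. Foxa3, a related forkhead gene, had a lowest rank of 30.5, and Krt8, a keratin of simple epithelia, 29.6. Most of the list was weaker: the median lowest rank of the 10 genes was 7.80, down to 1.13 for Cer1 and 0.441 for Hhex. Cxcr4, a chemokine receptor, and Foxa1 each missed 1 list.

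Streak and mesoderm genes had a member in 5 of 20 cases (25%, 8.66 to 49.1). Snai1, a repressor of E-cadherin, had scores of 30.97, 27.2, 25.6, 36.8, 30.8 and 31.8 and a lowest rank of 72.0. Isl1, a factor of heart and limb progenitors, had 51.1, and Eomes, a T-box factor of the streak, 8.37. Etv2, an endothelial factor, had peaks in 4 lists and Evx1, a posterior streak factor, in 5. Epiblast and neural plate genes had a member in 3 of 17 cases (17.6%, 3.799 to 43.4), and all 3 were weak. With either end counted, these 2 lists had 5 of 23 (21.7%) and 7 of 22 (31.8%). The lowest ranks were 4.004 for Lin28a, an RNA-binding protein, 2.48 for Zic5, a zinc finger factor, and 0.66 for Fgf5, a growth factor. The WT High score of Fgf5, 2.19, was the lowest score of that list. En1, a homeobox gene, had peaks in 3 lists, and Dnmt3l, a cofactor of DNA methylation, in none.

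None of 6 extraembryonic ectoderm and trophoblast genes had a member at a start, and an exact interval over so few genes reaches 45.9%. At their starts Ascl2 had peaks in 2 lists and Cdx2 in 5. With either gene end counted, 2 of 9 genes (22.2%) had a member, and Cdx2 was one of them. Of 23 late organ genes, Syt1, a synaptic vesicle protein, had a member, with a lowest rank of 81.0, and 17 had no peak in any list. Acta1, skeletal muscle actin, was among the 17, and Afp, the fetal serum protein alpha-fetoprotein, had a peak in WT Middle alone. The promoters of Amy2b and Cela1 printed above belong to this list. With either end counted, the late organ list had 3 of 30 (10%).

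Whole gene families showed the same span. A member lay at 1 of 938 olfactory receptor genes and 1 of 322 vomeronasal receptor genes. None of 34 taste receptor, 29 beta-defensin, 51 keratin-associated protein or 26 kallikrein genes had one. Krt8 was the single keratin among 36 with a member. The share was 30 of 32 Cep centrosome genes (93.8%, 79.2 to 99.2), 33 of 41 Eif translation initiation genes (80.5%, 65.1 to 91.2) and 193 of 325 Zfp zinc finger genes (59.4%, 53.8 to 64.8). Of 59 replication-dependent histone genes, 32 had a member (54.2%, 40.8 to 67.3). Solute carrier genes, with 114 of 282 (40.4%, 34.6 to 46.4), were close to all genes.

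tRNA genes had a member more often than the miRNA, snRNA and snoRNA genes counted here. A member lay within 1 kb of 198 of 391 tRNA genes (50.6%, 45.6 to 55.7), and 94 had no peak of any list. The tRNA clusters differed from each other. In the 1-Mb bin at 23 Mb of chromosome 17, all 7 tRNA genes had a member. The counts were 14 of 18 at 69 Mb of chromosome 11, 17 of 25 at 96 Mb of chromosome 3, 29 of 45 at 23 Mb of chromosome 13 and 26 of 52 at 21 Mb of chromosome 13. At 48 Mb of chromosome 6 it was 0 of 48. tRNA genes are repeated in near-identical copies, so reads may not be assigned to one copy, and neighbouring genes share a member. The bin at 69 Mb of chromosome 11 was also the densest, with 47 members against a median of 5 in bins with any. By the same distance of 1 kb, 65 of 931 snRNA genes (6.98%), 54 of 1286 snoRNA genes (4.199%) and 76 of 8884 pseudogenes (0.855%) had a member.

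Hairpins of 56 of 1136 miRNA genes had their midpoint in a member, and 23 of these hairpins lay in a member away from a protein-coding start. The mature forms in 3 such members are shown, from RefSeq with the seed (bases 2 to 8) in capitals, because 2 of the members hold a pair of related miRNAs.
mmu-miR-132-3p: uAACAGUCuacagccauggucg
mmu-miR-212-3p: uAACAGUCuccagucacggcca
mmu-miR-302b-3p: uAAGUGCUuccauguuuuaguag
mmu-miR-302c-3p: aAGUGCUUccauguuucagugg
mmu-miR-210-3p: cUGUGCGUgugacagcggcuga
miR-132 and miR-212 have the same seed and lay in 1 member (chr11:75172619-75173966), which had ranks of 18.5, 33.5, 8.37, 49.1, 62.6 and 25.96 in the order of lists used above. miR-302b and miR-302c belong to a family known from pluripotent cells, and their seeds are shifted by 1 base. They lay in 1 member within Larp7 (chr3:127544168-127545462), with ranks of 62.3, 70.2, 82.8, 34.2, 71.2 and 53.1. Its lowest rank was in dHx High and its highest in WT Negative. miR-210, known from hypoxia, lay in a strong member in every list (chr7:141221070-141222885), with ranks between 94.9 in WT High and 97.6 in WT Negative.

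Sequence, which the rule did not use, set the shared starts apart from the others. The promoter table gave 8229 starts with a member within 1 kb, 5585 with peaks and no member, and 6271 without a peak. The median number of CpG in the 300-base window, from 250 before to 50 after the start, was 22, 16 and 3. A member was present at 1.85% (1.43 to 2.35) of starts with 0 to 2 CpG, at 26.7% (24.9 to 28.4) with 6 to 10, and at 69.4% (67.4 to 71.2) with 21 to 25. With 31 or more the share was 65.4% (63.6 to 67.1). Starts without a peak went the other way, from 83.3% with 0 to 2 CpG to 2.66% with 31 or more. Even so, 65 starts of 63 genes with at most 2 CpG had a member.

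**Figure D3:**
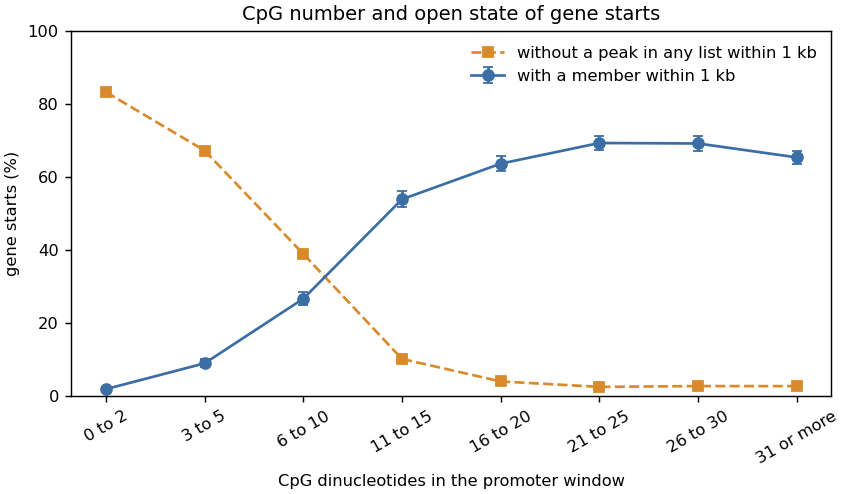
Percentage of gene starts with a member within 1 kb (circles, 95% Clopper-Pearson intervals) and without a peak in any list (squares) by the number of CpG in the 300-base promoter window. The member share goes from 1.85% to 69.4% and levels off above 20 CpG.

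In all, 9 words were searched on both strands of the window, and none contains another. The GC box GGGCGG was in 70.9% (69.9 to 71.9) of starts with a member, in 52.0% (50.7 to 53.3) with peaks and no member, in 11.3% (10.5 to 12.1) without a peak and in 47.0% of all starts. The ETS word CCGGAAG followed the same order, with 19.4%, 11.5% and 2.33%, and 11.9% of all starts. The YY1 word AAGATGGCG was in 2.90%, 2.11% and 0.175%, and 1.83% of all starts. The CRE word TGACGTCA was in 3.37%, 2.61% and 0.622% (2.30% of all), and the palindromic site of NRF1 in 2.02%, 1.61% and 0.223% (1.34% of all). The E-box CACGTG was in 9.93%, 8.67% and 4.51% (7.89% of all). The TATA word TATAAA ran opposite, with 5.36% (4.88 to 5.87), 9.51% (8.75 to 10.3) and 25.2% (24.1 to 26.3), and 12.7% of all starts. The forkhead word TGTTTAC was in 2.36%, 2.69% and 4.24% (3.04% of all), so over all starts, without regard to CpG number, it was no more frequent with a member. With only the upper 50% of each list by score, the shares without a peak were higher for some words, such as 21.2% for the GC box and 0.609% for the YY1 word. A match is a description of the letters and not a bound site.

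CpG number moved with these words, so they were also counted within ranges of it. Among starts with 16 or more CpG, the GC box was in 79.8% (78.8 to 80.8) of those with a member, 76.0% (74.4 to 77.6) of those with peaks and no member and 70.8% (65.0 to 76.2) of the 271 without a peak. The TATA word was in 3.89% (3.43 to 4.41), 5.13% (4.34 to 6.01) and 5.17% (2.85 to 8.52) there, with intervals that overlap. Both differences were smaller in that range. Between starts with a member and those without a peak, both remained in the other ranges. For the TATA word, the intervals with a member overlapped those with peaks and no member in every range. With 6 to 15 CpG the GC box was in 48.7%, 40.1% and 21.8%, and with 0 to 5 in 19.7%, 11.05% and 5.35%, in the same order of classes. The TATA word was in 9.07%, 11.4% and 14.7% with 6 to 15 CpG and in 13.4%, 17.4% and 29.0% with 0 to 5. For the CCAAT box the differences went with CpG number the other way. Over all starts it was in 43.1% (42.1 to 44.2) with a member, 30.7% (29.5 to 31.9) with peaks and no member and 38.1% (36.9 to 39.4) without a peak, and 38.1% of all starts. With 16 or more CpG it was in 41.6% (40.4 to 42.9), 22.3% (20.8 to 23.9) and 24.0% (19.03 to 29.5). With 6 to 15 CpG it was in 49.0%, 37.0% and 32.1%, and with 0 to 5 in 40.1%, 42.1% and 40.4%, with intervals that overlap. With 16 or more CpG, 21.0% (16.3 to 26.4) of starts without a peak held the E-box, against 10.97% (10.2 to 11.8) with a member. With 6 to 15 CpG it was 8.72% against 7.24%. With 0 to 5 the order was reversed, with 2.54% against 4.46%. The forkhead word was in 2.03%, 1.57% and 1.11% with 16 or more CpG, in the order of classes used above. It was in 3.19%, 2.82% and 3.19% with 6 to 15 and in 4.14%, 5.14% and 4.68% with 0 to 5. Its intervals overlapped within each range. So did those of the NRF1 site. It was in 2.499%, 2.67% and 2.21% with 16 or more CpG and in 0.685%, 0.942% and 0.671% with 6 to 15. The YY1 word was in 3.52%, 3.06% and 0.369% with 16 or more CpG and in 1.25%, 1.95% and 0.503% with 6 to 15. The CRE word was in 3.89%, 3.56% and 0.738%, and then 1.997%, 2.64% and 0.839%. For both words the intervals with a member overlapped those with peaks and no member. The ETS word kept its order in all ranges.

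**Figure D4:**
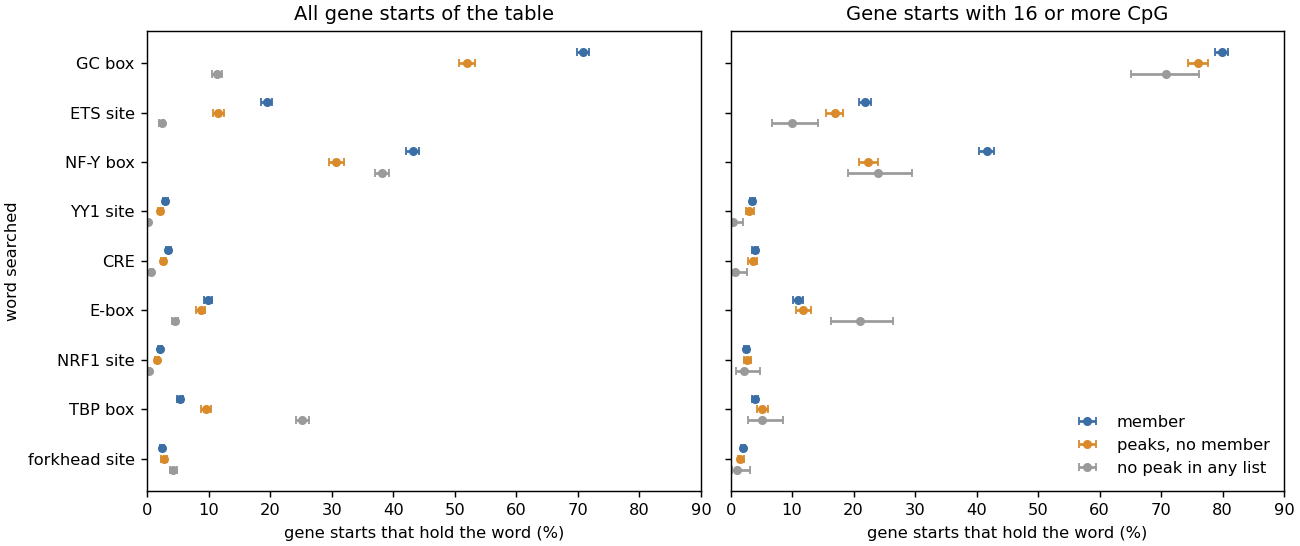
Percentage of gene starts that hold each word, on either strand, in starts with a member, with peaks and no member, and without a peak in any list, with 95% Clopper-Pearson intervals. Left, all starts. Right, starts with 16 or more CpG, where the box bound by NF-Y stands at 41.6% against 22.3% and 24.0%. The box of the TATA-binding protein (TBP) is at 5.36% of starts with a member and 25.2% of those without a peak.

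Positions were counted for 5 of the words. In 20-base bins over starts with a member, the fullest bin was -80 to -61 for CCAAT (13.2% of its matches), -60 to -41 for the GC box (12.8%) and -20 to -1 for the ETS word (16.1%). For the YY1 word it was 20 to 39, after the start, with 74 of 247 matches (29.96%). TATA words on the strand of the gene were fullest at -40 to -21, with 80 of 284 matches (28.2%). Starts without a peak had that same bin, with 344 of 1157 matches (29.7%). They also had the same bin for the GC box (17.0%) and the ETS word (15.9%), but not for CCAAT (-100 to -81) or the YY1 word (11 matches in all). In starts with peaks and no member the fullest bin was the same for all 5 words, with 36.1% for the YY1 word.

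The CCAAT box also went with the strength of the shared peaks. Members at the 3549 starts with it had median ranks of 68.0, 66.3 and 68.7 in the WT lists (High, Middle, Negative) and of 70.6, 65.7 and 68.9 in the dHx lists. At the 4680 starts without it, the medians were 43.1, 44.8, 46.4, 53.5, 46.4 and 47.3. The order was the same in all 6 lists. For the GC box the medians differed less, for example 55.3 with it and 51.3 without it in WT High. Starts with the TATA word ranked lower in every list, for example 41.3 against 53.9 in WT Middle. These ranks come from the scores of the calls that chose the members and are a description.

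Members were the strong end of every list. They held between 28.3% (dHx Negative) and 36.6% (dHx High) of the peaks of a list. Of the strongest 10% of the peaks they held between 69.5% (WT Middle) and 87.7% (dHx High), and of the weakest 10% between 5.51% (dHx Negative) and 10.7% (WT Negative). The median authors' score in WT High was 15.5 over members, each with its highest peak, and 4.95 over single peaks outside them. In dHx Negative these medians were 17.9 and 4.55. Members at starts ranked above the others in each list. The gap was widest in dHx High, with medians of 57.5 and 39.5, and narrowest in WT Middle, with 51.1 and 48.1. When members were put into 10 equal classes by their lowest rank, the share at a start went from 67.7% (65.1 to 70.3) in the top class to 34.7% (32.1 to 37.4) in the bottom class.

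The very strongest members departed from this order. Of the 100 with the highest lowest rank, 42 were at a start, and 17 lay in the zinc finger gene clusters of chromosomes 2 and 4. The stretches counted here held 95 of all members, from 174075748 to 178529346 on chromosome 2 and from 145034492 to 148891562 on chromosome 4. Only Zfp970 among the top 10 was at a start, and it lies in one of these clusters. The first was inside Lama1, a laminin gene (chr17:67741319-67741699), with scores of 1843, 1146, 1295, 885, 748 and 1665. Next came a region 4.64 kb from Tafa3, regions inside Lars2, Ank3 and Peak1, and one 63.3 kb from Adgrl2. A region 9.86 kb from Gm39469 and regions inside Il31ra and Arhgap21 completed the list. Their scores ran from 264 to 2823. Whether these sequences occur in several copies in the genome was not tested, and the genes are named as places only.

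Counted by the nearest gene within 100 kb, BC107364 had the most members (12), followed by Foxn3, Gm38510, Gse1 and Zfp184 with 9 each and Fcgr1, Maml3 and Ptprn2 with 8. Another 7 genes had 7 each, among them Shroom3, an actin regulator of epithelial shape, and Pde4d, a phosphodiesterase. BC107364 and Fcgr1 lie in the 1-Mb bin of the tRNA genes at 96 Mb of chromosome 3, which has 37 members, 13 of them at tRNA genes.

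A peak in every list did not mean equal rank in every list. Over the 12799 members, Spearman's rho between the ranks of a pair of lists went from 0.563 (WT Negative and dHx Middle) to 0.757 (WT Negative and dHx Negative). It was 0.739 for WT Middle and dHx Middle and 0.697 for WT High and dHx High. The points share library depth and the position of the region, and rho is a description. For every list, the highest rho was with the list of the other genotype at the same RFP level.

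All 4 RFP-positive lists ranked 1335 members (10.4%) above both Negative lists, and both Negative lists ranked 1457 (11.4%) above all RFP-positive lists. All WT lists ranked 466 (3.64%) above all dHx lists, and the reverse held for 595 (4.65%). Both High lists ranked 1215 (9.49%) above the other 4. With 1 list per group, none of these counts has a test. Starts and other places differed. RFP-positive lists were above in 8.44% (7.77 to 9.14) of members at a start and 12.5% (11.7 to 13.3) of the others, and gaps of over 25 rank points were at 17 starts and 163 other members. The Negative lists were above in 9.95% (9.23 to 10.7) and 12.8% (12.03 to 13.7), with such gaps at 21 starts and 76 other members, so both orders were less frequent at starts. dHx lists were above in 5.73% (5.18 to 6.33) of members at a start and 3.54% (3.10 to 4.03) of the others. WT lists were above in 2.92% (2.52 to 3.36) and 4.38% (3.89 to 4.91). Both High lists were above in 11.3% (10.5 to 12.1) and 7.65% (7.01 to 8.33), but with gaps of over 25 points at 20 starts and 33 other members. Members at starts ranked highest in dHx High, with a median of 57.5 against 39.5 for the others. The part of that list in the shares for the dHx and High orders was not tested.

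The widest gaps in favour of the RFP-positive lists were away from starts. A member at the start of a long noncoding RNA 62.7 kb from Lmcd1 (chr6:112210424-112211084) had ranks of 86.2, 88.3 and 94.5, 86.4 in the WT and dHx High and Middle lists, against 4.004 in WT Negative and 11.7 in dHx Negative. Inside Fkbp15 the RFP-positive ranks went from 85.5 to 97.6, against 13.6 and 11.7. Inside Cdc42bpa, a kinase of the actin cytoskeleton, the ranks were 93.9 in WT High, 95.99 in WT Middle and 99.4 in both dHx High and dHx Middle, against 4.004 in WT Negative and 22.3 in dHx Negative. The WT Negative score was 3.28 both there and near Lmcd1, close to the lowest score of that list, 2.46. Inside Cnksr3 the RFP-positive ranks were all above 99.1, against 30.5 and 18.7. Further members of this kind lay inside Ptpn21, Bnip3, a mitophagy gene, Myo18b and Zfp985, 120.4 kb from Lmo4 and 83.7 kb from Ero1b. Zfp985 is a multi-copy zinc finger gene, and its value is uncertain.

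In favour of the Negative lists, the widest gap was at the start of Slc9a9, a sodium and proton exchanger (chr9:94669999-94670697). Its ranks were 88.4 in WT Negative and 78.9 in dHx Negative, and 2.48, 16.4, 0.934 and 1.00 in WT High, WT Middle, dHx High and dHx Middle. Inside Tenm4, a teneurin adhesion gene, they were 84.2 and 96.1 against at most 30.5. Inside Hhipl1 they were 94.2 and 83.7 against at most 30.5, and inside Sox6, an SRY-related factor gene, 68.7 and 81.0 against at most 20.6. A member 393 kb from Meis1, a homeobox gene, had 91.8 and 72.3 against at most 25.1. The others lay inside Map2k6 and Nwd1, 4.12 kb from Plcg2, 12.9 kb from Baiap2l1 and 17.3 kb from Csl.

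Between genotypes, gaps of over 25 points were fewer, with 15 members in favour of WT and 7 in favour of dHx, against 180 and 97 for the RFP-positive and Negative lists. The genotype orders split the lists evenly and the RFP orders do not, so these counts are not of the same measure. Of the 10 widest in favour of dHx, 6 were at a start. The start of Ubac2 (chr14:121878126-121879249) had ranks of 28.7, 33.5 and 41.5 in the WT lists and 79.7, 79.6 and 77.7 in the dHx lists. The start of Eed, a core subunit of PRC2 (chr7:89980061-89981570), had ranks of 9.52, 5.06 and 1.13 in the WT lists and 39.5, 55.4 and 60.5 in the dHx lists. Its WT scores were 4.95, 3.89 and 2.46, and 2.46 was the lowest score of the WT Negative list. Nemp2, Fubp3, Grhpr and Gm40847 also had such a member at a start. Samd1, Hdhd2 and Sqle, the squalene epoxidase of cholesterol synthesis, had one at a gene end without a start in the table, and Maml2, a Notch coactivator, inside the gene. In favour of WT, none of the 10 was at a start of the table. Those at Gm10323, Anxa3 and Clu and 2 regions of Zfp978 were at an end of a gene without a start in the table, so some may be starts. Gm10323 and Zfp978 are multi-copy genes and uncertain. At an end of Anxa3, an annexin gene, the ranks were 98.2, 95.6 and 96.4 in the WT lists and 7.55, 55.4 and 53.1 in the dHx lists. Inside Arid1b, a remodelling complex subunit, they were 47.4, 41.3 and 50.8 against 7.55, 1.00 and 1.57. The rest lay inside Eqtn, at an end of Clu, and 326 kb from Hdgfl1, 137 kb from Mpped2 and 21.3 kb from Dyrk2.

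**Figure D5:**
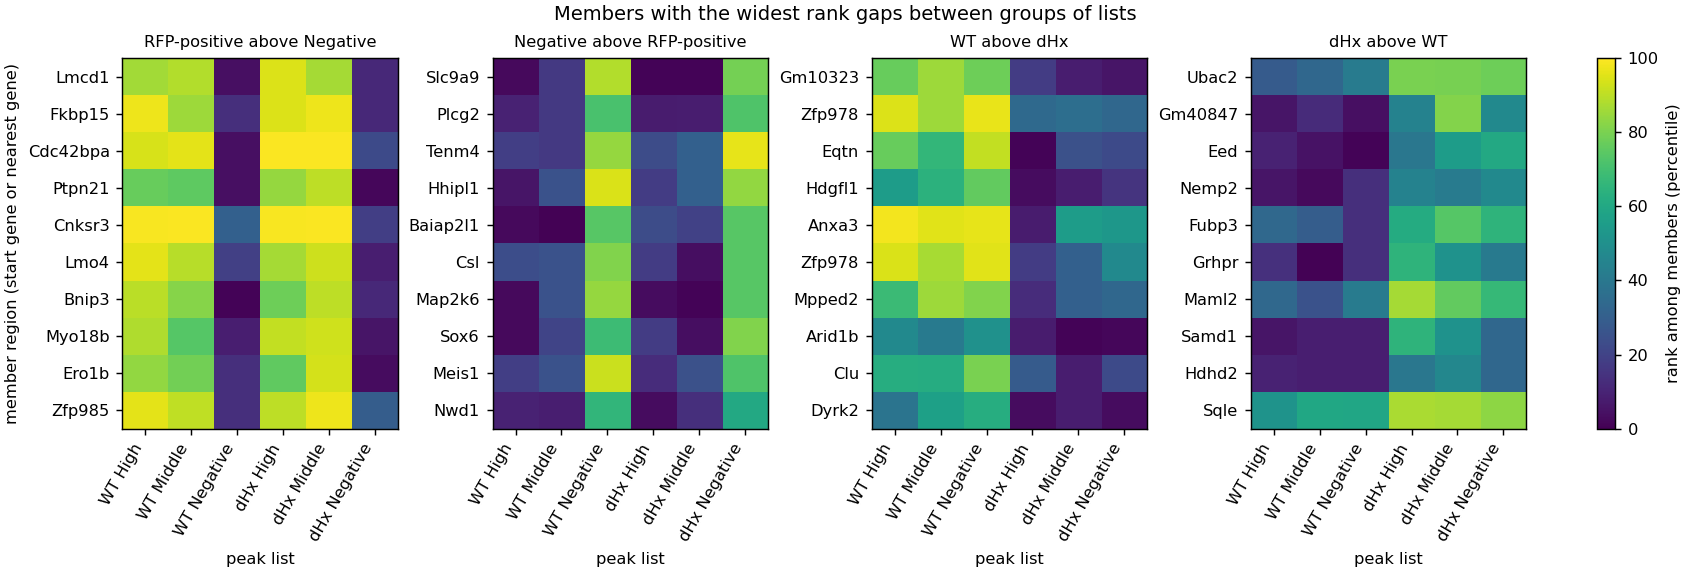
Rank among members (colour, 0 to 100 percentile) in the 6 lists, for the 10 members with the widest gap under each of 4 orders of the lists. Each row is 1 region, named by the gene whose start it holds or the nearest gene. Cdc42bpa has ranks from 93.9 to 99.4 in the RFP-positive lists and 4.004 and 22.3 in the Negative lists, and Ubac2 77.7 to 79.7 in the dHx lists and 28.7 to 41.5 in the WT lists.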

How the data were processed

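The authors deposited 1 peak list per group on mm10. The submitters' processing notes name the tools MACS2 and STAR 2.5.2a. The unnamed score column of the deposited lists was read, from its values, as −log10 of either the p-value or the q-value. Lines with the same start and end were merged. Tool settings and read totals were not given in the sources used here, so depth is unknown. Peaks on chromosomes 1 to 19 were joined with an overlap of at least 1 bp, and a member was ranked in each list by its highest score. Gene positions came from the RefSeq gene table of GRCm38.p6, and starts from the RefSeq promoter table, which gives a start for 16457 of 20665 autosomal protein-coding genes. Shares carry Clopper-Pearson 95% intervals (scipy 1.17.1). The overlap code was checked on simulated peaks. With 1 pooled list per group, no test between groups was run. Members, 15 gene lists and words were chosen with earlier results of these data known. Named were Foxa2, from each list up to 3 genes with the highest lowest rank and 2 without a member (alphabetical), and 10 regions or genes per ranking. Others were chosen after their values were seen. Alternatives were other joins, widths, thresholds, distances, strands and chromosomes X and Y.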

Additional observations from a re-analysis of the deposited data

How the results depend on the processing

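Using only the upper 50% of each list by score left 6763 members in place of 12799, while the other 6 alternatives gave between 11508 and 13166. The share of members at a protein-coding start (50.6%) was 58.3% with that 50%, 51.9% with lists reduced to the length of the shortest, 49.5% within 500 bp and 52.0% within 2 kb. The share of genes with a member (42.3%) was 26.6% with that 50%, 39.2% with reduced lists, 39.9% below 2000 bp, 41.5% with a base shared by all lists, 41.0% with X and Y, and 43.1% within 2 kb. GGGCGG stood at 72.3% of starts with a member with the upper 50% and 48.2% on the gene strand. At starts without a peak it stood at 12.2% within 500 bp, 21.2% with that 50% and 6.65% on the gene strand. TATAAA stood at 4.602% with that 50% and 3.39% on the gene strand at starts with a member, and at 21.1% and 16.9% at starts without a peak. At starts without a peak, that 50% also moved the ETS word to 4.10%, the YY1 word to 0.609%, the CRE word to 1.13% and the NRF1 site to 0.586%. Which of the starts with a member and those without a peak had more did not change for these 6 words in any alternative run. The cause of these shifts was not tested, apart from fewer peaks or 1 strand being searched. No paired analysis was possible because each group had 1 pooled list, and no replicate could be left out. Depth per list is unknown, so a missing peak does not show closed chromatin.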
